A study of Mus musculus with 3 samples.

Results

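The CCR4-NOT complex was examined through the transcripts of 10 of its subunit genes, chosen by name from the 55536 genes of the deposited tables: Cnot1, Cnot2, Cnot3, Cnot4, Cnot6, Cnot6l, Cnot7, Cnot8, Cnot10 and Cnot11. All 10 symbols were found in the annotation. The samples were 3 RNA sequencing libraries of 1 group, biological replicates 1, 2 and 3 of C57BL/6J mouse bone marrow-derived macrophages, with sex and age not collected. The cells had received 100 ng/ml Lipid A, the endotoxin part that TLR4 senses, for 12 h, were washed and kept without it for 12 h, and received 100 ng/ml Lipid A again for 50 min. Ribosomal RNA was depleted from 1 µg of total RNA of the cytosolic fraction. No untreated or singly treated group was analysed here, so the values are levels in restimulated cells and not responses to Lipid A. The replicates share 1 donor entry for the strain, and no label ties them to separate animals. Every p-value thus rests on these libraries alone, and the spread between them may be technical.

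CCR4-NOT is the main cytoplasmic deadenylase of animal cells: it shortens the poly(A) tail of mRNAs, a step that lowers translation and opens the message to decapping and decay. CNOT1 is the scaffold on which the other subunits assemble. A catalytic pair of nucleases, one of the CAF1 type (CNOT7 or CNOT8) and one of the CCR4 type (CNOT6 or CNOT6L), removes the tail, CNOT2 and CNOT3 form the NOT module at the C-terminal end of the scaffold, and CNOT10 and CNOT11 bind its N-terminal end. CNOT4 is a RING-type ubiquitin ligase that is only loosely held in mammalian complexes. In macrophages the complex is best known for acting on AU-rich cytokine mRNAs such as Tnf through the zinc finger protein tristetraprolin, encoded by Zfp36.

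Among the transcripts named below, those of Cnot1, Cnot3, Cnot4 and Cnot6 differed by segments that the annotation places inside the coding sequence or in an intron, and these segments are shown first because the isoform values below turn on them. Each was read 5′ to 3′ from a GENCODE M21 transcript (mm10) with 12 flanking transcript bases in lower case, and the alternative segment is in capitals.
Cnot1, 15 bases, chr8:95754965-95754979, minus strand: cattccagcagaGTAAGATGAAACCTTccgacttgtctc
Cnot1, 6 bases, chr8:95774723-95774728, minus strand: gatttccatcagACACAGtttctgattcag
Cnot4, 213 bases, chr6:35024128-35024340, minus strand: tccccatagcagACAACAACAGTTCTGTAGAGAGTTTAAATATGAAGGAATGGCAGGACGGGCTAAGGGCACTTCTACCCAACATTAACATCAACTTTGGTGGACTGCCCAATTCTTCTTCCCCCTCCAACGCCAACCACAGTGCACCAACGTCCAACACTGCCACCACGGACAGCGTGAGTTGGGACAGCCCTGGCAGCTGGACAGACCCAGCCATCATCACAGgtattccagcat
Cnot4, 9 bases, chr6:35064889-35064897, minus strand: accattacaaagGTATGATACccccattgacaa
Cnot6, 15 bases, chr11:49685248-49685262, minus strand: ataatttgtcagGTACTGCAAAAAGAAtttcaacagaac
Cnot3, 80 bases of a retained intron, chr7:3655953-3656032, plus strand: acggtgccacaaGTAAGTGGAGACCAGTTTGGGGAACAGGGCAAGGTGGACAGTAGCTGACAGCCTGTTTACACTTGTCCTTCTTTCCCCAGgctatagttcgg
The first 5 segments lie wholly in coding sequence and have lengths of 5, 2, 71, 3 and 5 codons in the order shown. The Cnot3 segment starts with GT, ends with AG and is not a multiple of 3.

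The 150 bases before 2 start sites of Cnot6l, those of its leading transcripts, are shown because this was the only gene of the 10 whose leading transcript differed between the deposited transcript tables, and its leading transcripts start at different sites. The sequences are RefSeq's (GRCm38.p6), 5′ to 3′ along the gene, with GGGCGG or its reverse complement, the SP1 box, in capitals.
Cnot6l-210, chr5:96161991-96162140, minus strand: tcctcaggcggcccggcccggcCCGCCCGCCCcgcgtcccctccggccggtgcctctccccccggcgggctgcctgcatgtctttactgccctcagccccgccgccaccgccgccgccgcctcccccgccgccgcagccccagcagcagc
Cnot6l-201 and Cnot6l-202, chr5:96161756-96161905, minus strand: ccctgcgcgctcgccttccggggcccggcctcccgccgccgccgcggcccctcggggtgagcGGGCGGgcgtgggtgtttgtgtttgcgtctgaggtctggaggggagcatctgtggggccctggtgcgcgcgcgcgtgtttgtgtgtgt
The first holds 2 overlapping boxes and 82.7% G+C, the second 1 box and 74.7% G+C.

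All 10 genes were expressed, defined as a TPM (a length-corrected share of all transcripts) of at least 1 in every library, against 17.2% of all 55536 genes. The scaffold stood highest, the CNOT10-CNOT11 module lowest, and the catalytic, NOT-module and Cnot4 transcripts lay between. Levels ran from 3.47 ± 0.67 TPM (SD, n = 3) for Cnot10 to 19.35 ± 3.34 TPM for Cnot1, from percentile 20.1 to percentile 71.8 among expressed protein-coding genes. The median of the 10 genes was 12.3, 9.06 and 12.9 TPM in replicates 1, 2 and 3, beside 9.78, 7.29 and 10.3 TPM for all expressed protein-coding genes. In bulk RNA, fewer cells of a type and less RNA per cell cannot be told apart.

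**Figure D1:**
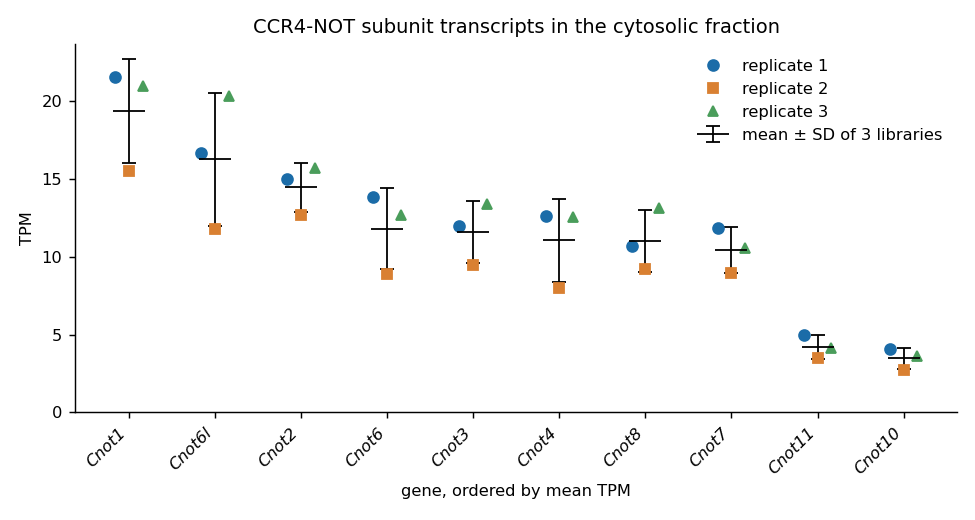
TPM (y axis) of the 10 CCR4-NOT subunit genes, ordered by mean (x axis), with 1 point per library and the mean ± SD of 3 libraries in black. Cnot1 is highest and Cnot10 lowest in every library, and replicate 2 is the lowest library for every gene.

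Facts of the libraries bear on how these values are read. Genes held 47972062 expected counts in replicate 1, 54409436 in replicate 2 and 53491957 in replicate 3. The 10 genes drew between 613 and 9917 expected counts per library. Short RNA classes took 65.2%, 72.9% and 61.8% of TPM. Replicate 2, with the highest such share, had the lowest TPM of all 10 genes; summed CPM of the 10 genes (counts scaled by TMM library sizes, with no correction for length) was 594.6, 580.5 and 602.5, a ratio of highest to lowest of 1.04, beside 1.40 for summed TPM. The nuclear RNA Malat1 stood at 5966, 3089 and 1426 CPM and Neat1 at 636.3, 247.8 and 128.1 CPM. The libraries thus differed in these nuclear RNAs, for a reason that was not tested. All 12 macrophage markers passed 1 TPM in every library, with a summed TPM of 7196 to 9461, led by Lyz2 (3417 TPM) and C1qb (967.5 TPM). Summed TPM was 8.46 to 11.2 for 8 neutrophil markers (S100a9 5.41, S100a8 3.80, Ly6g 0), 2.90 to 13.7 for 3 endothelial markers (Kdr 6.11, Pecam1 0.717) and 1.49 to 1.70 for 4 dendritic cell markers (Ccr7 1.12, Itgax 0.387). It was at most 0.42 for mast cell and basophil (Kit 0.263, Mcpt8 0.0333), 0.29 for T and NK cell (Lck 0.130, Nkg7 0.03), 0.10 for B cell (Cd79a and Ms4a1 0.0167 each), 0.10 for erythroid (Hba-a1 0.0433, Hbb-bs 0.0233) and 0.07 for stromal markers (Col1a2 0.03, Dcn 0.0133, Pdgfra 0).

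Cnot1 (chr8:95719451-95807464, minus strand) encodes the scaffold that every complex needs. Its level was 21.6, 15.5 and 20.97 TPM in replicates 1, 2 and 3. It was first of the 10 in each library, and exceeded the median of the other 9 by 0.80, 0.73 and 0.68 on the log2(TPM + 1) scale. The mean difference was 0.74 ± 0.06 (SD, n = 3), higher in 3 of 3 libraries, and the sign-flip test over libraries (exact, two-sided) gave p = 0.25, its lower limit with 3 libraries. Benjamini-Hochberg adjustment over the 7 differences tested gave 0.35.

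The CAF1-type nucleases were close to each other in level. Cnot7 (chr8:40492540-40515847, minus strand) stood at 11.9, 8.93 and 10.6 TPM. Cnot8 (chr11:58104153-58118594, plus strand) stood at 10.7, 9.19 and 13.1 TPM. Cnot7 was the higher in replicate 1 and Cnot8 in replicates 2 and 3, and their ranges overlapped. The difference, Cnot7 minus Cnot8, was -0.06 ± 0.21 on the log2(TPM + 1) scale (SD, n = 3), smaller than its spread, with an exact sign-flip p of 0.75 (adjusted 0.75). Its sign turned to 0.11 with the second transcript table and to 0.051 without replicate 3.

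The CCR4-type nucleases were less even. Cnot6 (chr11:49671503-49712723, minus strand) stood at 13.9, 8.89 and 12.7 TPM. Cnot6l (chr5:96070333-96164171, minus strand) stood at 16.7, 11.8 and 20.3 TPM, behind Cnot1 alone in replicates 1 and 3 and behind Cnot1 and Cnot2 in replicate 2. Cnot6l exceeded Cnot6 in each library although the ranges over libraries overlapped. Of Cnot6l TPM, 3.45, 2.17 and 4.80 lay on Cnot6l-206, a transcript of 421 bases with few counts. That is more than the gap to Cnot6 in replicate 1, and more than the gap to Cnot2 in replicates 1 and 3. Cnot6 minus Cnot6l was -0.25, -0.37 and -0.64 in replicates 1, 2 and 3, with a mean of -0.42 ± 0.20 (SD, n = 3; exact sign-flip p = 0.25, adjusted 0.35).

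The difference was widest in replicate 3 in TPM and in reads, but by less in reads. Cnot6 was 0.832, 0.754 and 0.623 times Cnot6l in TPM in replicates 1, 2 and 3, and its CPM was 0.801, 0.775 and 0.726 times that of Cnot6l. Against the scaffold, Cnot6l reads, as a percent of Cnot1 reads, were 54.6, 53.1 and 54.1% in CPM in replicates 1, 2 and 3, while the same ratio in TPM was 77.2, 76.0 and 97.0%. The scales differ by the effective length that the deposited gene table uses. For Cnot6l it was 4367, 4379 and 3782 bases, and for Cnot1 6175, 6272 and 6774 bases. The share of Cnot6l TPM on its longest transcript of the leading ones, Cnot6l-210 (8564 bases), was 38.2, 38.6 and 29.8%.

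Taken as classes, the CCR4-type nucleases exceeded the CAF1-type. Summed TPM of Cnot6 and Cnot6l was 30.5, 20.7 and 33.02, and that of Cnot7 and Cnot8 was 22.6, 18.1 and 23.7. The CAF1 sum was 0.740, 0.876 and 0.717 times the CCR4 sum in replicates 1, 2 and 3. The difference of CAF1 minus CCR4 was -0.35 ± 0.15 on the log2(TPM + 1) scale (SD, n = 3; exact sign-flip p = 0.25, adjusted 0.35), of 1 sign in 3 of 3 libraries.

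In the NOT module Cnot2 stood above Cnot3 in every library. Cnot2 (chr10:116485161-116581511, minus strand) was at 14.99, 12.7 and 15.7 TPM. Cnot3 (chr7:3645268-3661109, plus strand) was at 12.0, 9.46 and 13.4 TPM. The ranges met, since Cnot3 in replicate 3 was above Cnot2 in replicate 2. Within libraries Cnot2 was 1.25, 1.34 and 1.17 times Cnot3, a mean difference of 0.30 ± 0.09 on the log2(TPM + 1) scale (SD, n = 3; exact sign-flip p = 0.25, adjusted 0.35).

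Cnot10 (chr9:114585878-114640184, minus strand) and Cnot11 (chr1:39534992-39546889, plus strand), whose proteins form the module at the N-terminal end of CNOT1, were the 2 lowest genes in each library. Cnot10 stood at 4.06, 2.74 and 3.61 TPM, and Cnot11 at 5.0, 3.46 and 4.16 TPM. Both stayed at or below 5.0 TPM, while the lowest value of any other subunit was 7.96 TPM, so they did not overlap with the rest. As a percent of Cnot1 TPM they came to 17.9 ± 0.8% and 21.8 ± 1.7% (SD, n = 3), beside 54.3 ± 3.7% for Cnot7, the next gene up. Cnot10 minus Cnot11 was -0.22 ± 0.05 on the log2(TPM + 1) scale, of 1 sign in 3 of 3 libraries (exact sign-flip p = 0.25, adjusted 0.35).

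Cnot4 (chr6:35022065-35133724, minus strand), the ubiquitin ligase, stood at 12.6, 7.96 and 12.6 TPM. It stood above Cnot3, Cnot7 and Cnot8 in replicate 1 and below all of them in replicate 2. Its difference from the median of the other 9 genes was -0.06 ± 0.13 (SD, n = 3; exact sign-flip p = 0.75, adjusted 0.75), within its spread, and turned to 0.0060 without replicate 2.

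Ordered by mean TPM the genes ran Cnot1, Cnot6l, Cnot2, Cnot6, Cnot3, Cnot4, Cnot8, Cnot7, Cnot11, Cnot10. Neighbours were read as different where all 3 libraries agreed in sign and the mean difference exceeded its SD. That held for 4 of 9 neighbouring pairs: Cnot1 over Cnot6l, Cnot2 over Cnot6, Cnot7 over Cnot11 and Cnot11 over Cnot10. The step from Cnot7 to Cnot11 was 1.14 ± 0.03 on the log2(TPM + 1) scale, and no other step exceeded 0.29. No neighbouring pair among Cnot6, Cnot3, Cnot4, Cnot8 and Cnot7 met it, and pairs that are not neighbours were not compared. The second transcript table gave another order in the middle, with Cnot7 at rank 4 and Cnot4 at rank 8, next above Cnot11. There Cnot1 (8.18 ± 4.13 TPM) and Cnot6l (7.78 ± 3.19 TPM) still led, close together in mean, and Cnot11 and Cnot10 were still last.

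Read numbers of the subunits varied little between the libraries. The ratio of the highest to the lowest CPM ran from 1.01 for Cnot3 to 1.196 for Cnot10, with a median of 1.10, beside 1.27 over all 13827 genes tested and 1.18 over the 5898 protein-coding genes in the same CPM range. None of the 10 genes passed a ratio of 1.5, which 23.9% of tested genes and 8.80% of protein-coding genes in the same CPM range did. In a Poisson heterogeneity test of expected counts (chi-square with 2 degrees of freedom, Benjamini-Hochberg over all genes tested), 8 of 10 subunits differed between libraries beyond counting error, and 70.4% of all genes did. Among protein-coding genes in the subunits' CPM range the share was 82.8%, so 8 of 10 is near the background.

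The genes differed in which library was high. Cnot3, at 33.5, 33.7 and 33.9 CPM in replicates 1, 2 and 3, did not pass (adjusted p = 0.95 by the heterogeneity test). Cnot11, at 18.9, 18.2 and 17.4 CPM, did not pass either (adjusted p = 0.25 by that test). With total expected counts in place of TMM sizes, Cnot3 (ratio 1.11, adjusted p = 0.015) and Cnot11 (ratio 1.22, adjusted p = 0.00023) passed and Cnot8 did not (ratio 1.06, adjusted p = 0.25), so these 3 calls turn on the scaling. Cnot4 had the lowest adjusted p of the 10 (1.5e-09), with 54.6, 46.5 and 54.2 CPM. Its replicates 1 and 3 lay close together and replicate 2 below them, and without replicate 2 its adjusted p was 0.88. Cnot7 was at 33.6, 33.6 and 29.1 CPM, lower in replicate 3, and without that library its adjusted p was 0.97. Its partner in the CAF1 class, Cnot8, was at 27.1, 30.6 and 32.2 CPM, lower in replicate 1.

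The other genes that passed had ratios from 1.07 for Cnot1 to 1.196 for Cnot10. Cnot1 stood at 186.1, 183.3 and 195.5 CPM, Cnot2 at 43.2, 48.4 and 45.3 CPM and Cnot6 at 81.4, 75.4 and 76.9 CPM. Cnot6l stood at 101.7, 97.3 and 105.8 CPM and Cnot10 at 14.5, 13.6 and 12.1 CPM. The highest library was replicate 1 for 4 genes, replicate 2 for 2 and replicate 3 for 4, beside 29.5, 32.4 and 38.0% of all genes tested. The lowest was replicate 1 for 3, replicate 2 for 4 and replicate 3 for 3, beside 38.2, 29.2 and 32.6%. Leaving out any 1 library left 5 of 10 subunits past the test, with 53.5, 53.8 and 50.7% of all genes past it without replicates 1, 2 and 3.

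**Figure D2:**
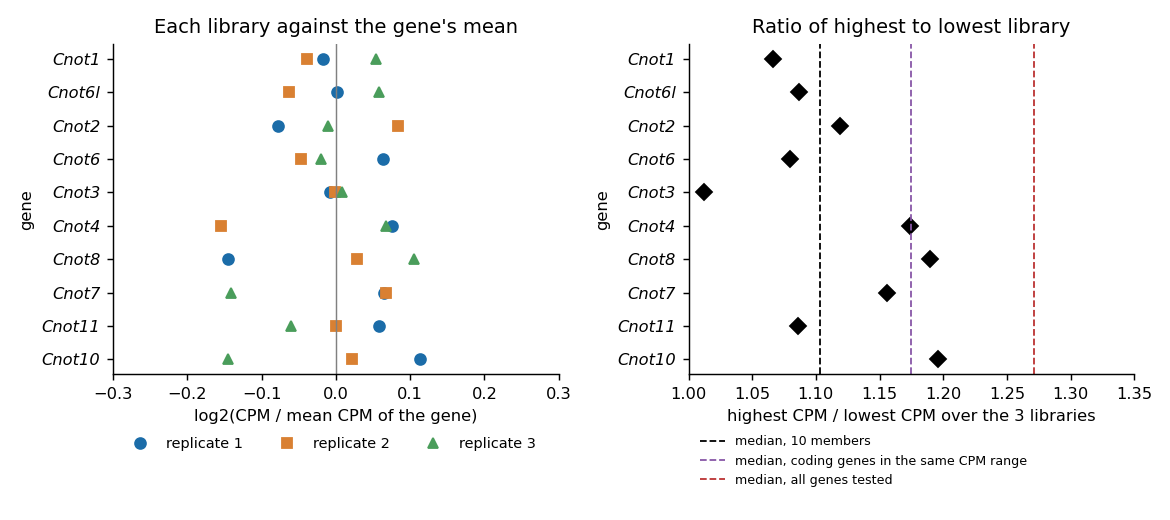
Left, log2 of each library's CPM over the gene's mean (x axis) for the 10 genes (y axis); right, the ratio of highest to lowest CPM per gene, with dashed lines at the medians of the 10 genes (1.10), of protein-coding genes in the same CPM range (1.18) and of all genes tested (1.27). Every gene lies below the median ratio of all genes tested, and Cnot4, Cnot8 and Cnot7 each have 1 library apart from the other 2.

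Overlapping annotation bears on some counts. Cnot1, Cnot2, Cnot3, Cnot6 and Cnot7 overlap genes or pseudogenes on the other strand, among them Leng1 at Cnot3 and Zdhhc2 and Vps37a at Cnot7, and with no stated strand setting such reads cannot be told apart. Reads shared between genes left a posterior SD of at most 16.4 counts for Cnot1, 6.86 for Cnot3 and 0.41 for the others.

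The annotation gives the 10 genes 94 transcripts, 43 of them protein-coding, 20 with a retained intron, 20 processed transcripts and 11 of the nonsense-mediated decay class. The authors' 2 transcript tables per library estimate them separately from the same reads. In both tables the highest transcript of all 10 genes was protein-coding, and 9 of 10 genes had the same highest transcript. The share of a gene's TPM on it had a median over the 10 genes of 60.0% in the first table and 48.2% in the second. Single transcripts could have a larger posterior SD of counts than their genes. It was at most 233.4 for Cnot1-203, 100.4 for Cnot4-202 (467.7 to 624.1 expected counts) and 37.2 for Cnot11-202 (0 to 164.7). The SDs of shares below are over libraries and do not include it.

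Cnot8 had the highest such share in both tables, with 99.2, 96.3 and 97.2% of its TPM on Cnot8-201 in replicates 1, 2 and 3 of the first table, and 93.6 ± 1.6% (SD, n = 3) in the second. Cnot10-201 held 81.4 ± 2.1% and 70.7 ± 4.7% in the first and second tables. Cnot7-201 held 73.9 ± 2.3% and 53.5 ± 9.5%, the second-table remainder including 2 short processed transcripts, Cnot7-210 with 14.9% and Cnot7-204 with 11.6%. The latter was uneven, with 16.3, 0 and 18.4% in replicates 1, 2 and 3 on 23.4, 0 and 25.95 estimated counts. In the first table Cnot7-204 held 1.06%. Cnot4 was spread over 4 protein-coding transcripts, Cnot4-203 with 37.5 ± 3.4%, Cnot4-206 with 23.2 ± 4.0%, Cnot4-202 with 20.5 ± 4.2% and Cnot4-207 with 10.6 ± 2.1% of first-table TPM. Second-table shares of these 4 were 36.8, 19.2, 24.0 and 11.4%, the widest gap between the tables being that of Cnot4-206.

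**Figure D3:**
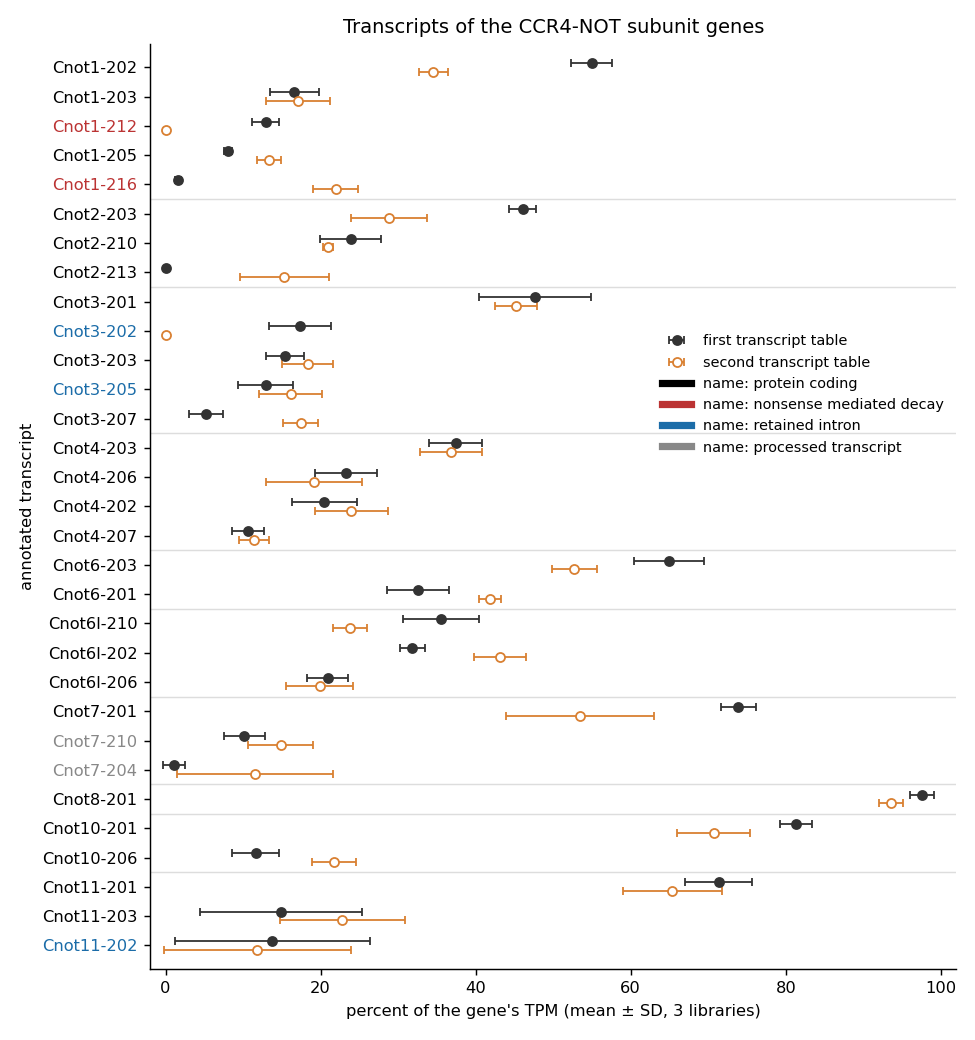
Percent of the gene's TPM (x axis, mean ± SD of 3 libraries) on each named transcript (y axis, coloured by annotated class) in the first table (filled) and the second (open). Cnot8-201 holds over 90% in both tables, Cnot4 is spread over 4 coding transcripts, and Cnot1-212, Cnot1-216, Cnot2-213 and Cnot3-202 are far apart between the tables.

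The tables were far apart for some transcripts. For Cnot1 the full-length coding transcript Cnot1-202 held 55.0 ± 2.7% in the first table and 34.5 ± 1.9% in the second. The first table put 12.9% on Cnot1-212, a nonsense-mediated decay transcript of 956 bases, and the second none. The second put 21.9% on Cnot1-216, another of that class with 7479 bases, which held 1.62% in the first. Cnot2-213 held 0 and 15.3%, and Cnot3-202, with a retained intron, 17.4 and 0.0161% in the first and second tables. These 4 shares differ between the quantifications, and sums that include them, given below, carry that difference.

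Outside Cnot2, 12 segments separate a gene's leading transcript from its other named ones, and 6 were chosen for printing after their values were seen. Their shares differ between the tables by less than those of the Cnot1 segments left unprinted, except for the 15 bases of Cnot6. A segment's share is the TPM of transcripts that hold it over the TPM of all transcripts that span its position, with no reads over the junctions themselves counted. The 15 bases of Cnot1 were in 82.2, 76.6 and 77.1% in the first table, 78.6 ± 3.1% on average, and in 76.4 ± 1.5% in the second. The 6 bases of Cnot1 were in 78.0 ± 4.0% and 74.1 ± 2.2%. Both are in Cnot1-202 (coding sequence 7128 bases) and absent from Cnot1-203 (7107 bases). By both tables most, but not all, of the scaffold's mRNA carried each. Cnot1-216, one of the transcripts on which the tables differ, is among those that hold them. Other Cnot1 segments were further apart between the tables: a 52-base coding segment was in 98.2 ± 0.4% and 71.6 ± 1.5%, a 109-base one in 83.3 ± 2.2% and 70.6 ± 0.9%, a 3-base one in 90.2 ± 0.1% and 81.5 ± 3.2%, and a 21-base non-coding one in 16.7 ± 2.2% and 29.4 ± 0.9%. For Cnot3 a 3-base coding segment was in 20.4 ± 1.9% and 23.9 ± 3.7%, and an 11-base non-coding one in 9.80 ± 2.67% and 24.0 ± 1.3%.

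Cnot2 was led by Cnot2-203 (coding sequence 1620 bases), with 46.4, 44.2 and 47.6% of first-table TPM in replicates 1, 2 and 3 and 28.9 ± 4.9% (SD, n = 3) in the second table. Cnot2-210 (1497 bases) followed with 23.9 ± 3.9% and 20.97 ± 0.61%.

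The 213-base segment of Cnot4 was the most evenly divided. It was in 44.5, 45.7 and 49.0% in the first table and in 42.8, 48.0 and 47.8% in the second, or 46.4 ± 2.3% and 46.2 ± 3.0% (SD, n = 3). It is in Cnot4-203 (coding sequence 2130 bases) and absent from Cnot4-206 (1917 bases). The 9-base segment was in 27.4 ± 2.3% and 31.1 ± 5.6%, through Cnot4-202 (1926 bases). The ubiquitin ligase was thus represented by mRNAs for proteins that differ at least over 71 and 3 codons, at shares that agreed between the tables within their SD for the longer segment. The share of the longer segment leaves out Cnot4-207 (coding sequence 1716 bases, 10.6 ± 2.1% of first-table TPM), which ends before that site.

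The 15 bases of Cnot6 were in 63.5, 71.4 and 66.6% in the first table and in 55.7, 59.0 and 58.2% in the second, so the tables did not overlap. The segment marks Cnot6-203 (coding sequence 1671 bases, 65.0 ± 4.5% of first-table TPM) against Cnot6-201 (1656 bases, 32.6 ± 4.0%). These transcripts also differ in length, 5736 against 2498 bases.

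**Figure D4:**
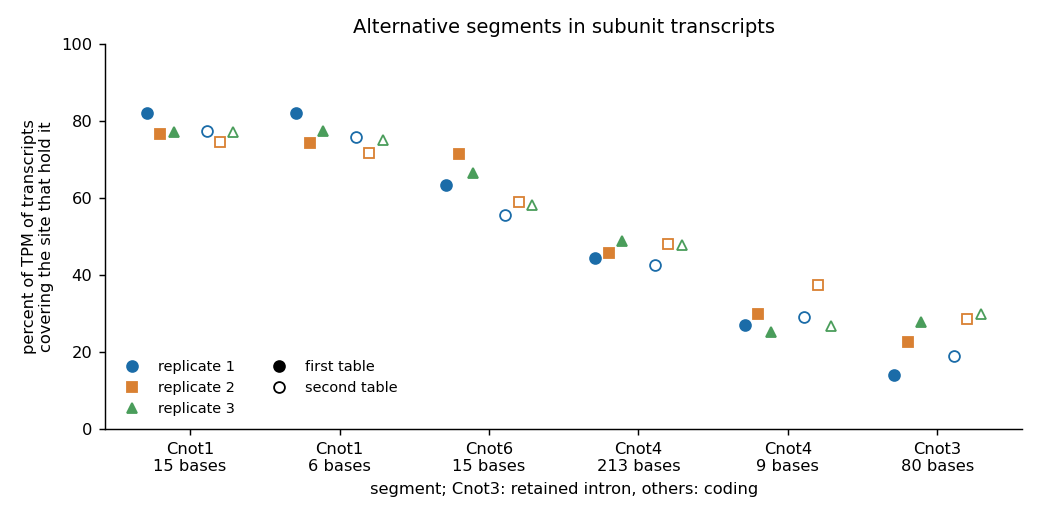
Percent of the TPM of spanning transcripts that hold each segment (y axis) for the 6 segments printed in the text (x axis), 1 point per library, filled for the first table and open for the second. Libraries and tables lie close for the Cnot1 and longer Cnot4 segments, the Cnot6 tables are apart, and the retained intron of Cnot3 is lowest in replicate 1 in both tables.

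For Cnot6l the tables disagreed on the leading transcript. Cnot6l-210 (8564 bases) held 35.5 ± 4.9% in the first table and 23.8 ± 2.2% in the second, and Cnot6l-202 (3170 bases) 31.8 ± 1.6% and 43.1 ± 3.4%. By start site, the upstream site of Cnot6l-210 took 35.5 and 23.8%, and the site of Cnot6l-201 and Cnot6l-202 took 37.4 ± 2.1 and 47.9 ± 2.3%, in the first and second tables. Another transcript, Cnot6l-206, held 20.9 ± 2.6% of first-table TPM, and starts further upstream at a site of its own (chr5, 96164171). It is 421 bases long and rested on 49.7, 45.3 and 74.9 expected counts. It had the most counts in replicate 3, the library with the shortest effective length of the gene.

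Of the promoters, 8 of the 10 genes matched 14 RefSeq windows of 250 bases before to 50 after a start site. Only Cnot6l and Cnot8 had windows whose start site is exactly that of an annotated transcript. The Cnot2 windows, with start sites 116580536 and 116527949, do not reach the start of its leading transcript, Cnot2-203 (116581500). Several windows of Cnot6l and Cnot8 overlap, so the windows are not separate promoters. GGGCGG, on either strand, was in at least 1 window of all 8 genes and in 11 of 14 windows, beside 35.7% of 32851 promoters of the same length. CCAAT was found for Cnot3 and Cnot6 (37.4% of all promoters), CCGGAAG for Cnot10, Cnot11 and Cnot6l (8.86%), and the NRF1 motif for Cnot4 and Cnot8 (4.60%). TATAAA (13.6%), the NF-kB motif (0.155%), the AP-1 motif TGANTCA (7.81%), the interferon-stimulated response element (3.44%) and the cAMP response element TGACGTCA (1.79%) were not found in these windows. All motifs were searched on both strands, and a match is a description of letters only.

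Retained-intron transcripts took a share of TPM in 8 of the 10 genes, and for 5 of these the share was highest in replicate 1 in either table. Among expressed protein-coding genes with such a transcript the share was highest in replicate 1 for 66.1% in the first table and 75.8% in the second. Replicate 2 was highest for 1 subunit gene in the first table (21.7% of those genes) and 3 in the second (16.2%), and replicate 3 for 2 in the first (12.3%) and 0 in the second (8.04%). Replicate 1 was also the library with the most Malat1 and Neat1, whose part in the result was not tested. The first table gave Cnot1 retained-intron shares of 5.38, 2.39 and 0.81% in replicates 1, 2 and 3, and the second 9.13, 5.02 and 0.876%. Cnot2, Cnot4 and Cnot6l had the same high library at shares of at most 2.09% in either table.

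Cnot11 was the clearest of these. Its single retained-intron transcript, Cnot11-202, held 24.6, 16.8 and 0% of first-table TPM in replicates 1, 2 and 3, on 164.7, 110.9 and 0 expected counts. The second table gave 24.1, 11.4 and 0%. The coding transcript Cnot11-203 moved the other way, with 9.00, 8.67 and 27.0% in the first table, and Cnot11-201 held 66.4, 74.6 and 73.0%. Total Cnot11 reads passed the heterogeneity test with total-count scaling but not with TMM, as given above.

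Cnot3 went against that direction. Its retained-intron transcripts held 23.9, 33.2 and 37.7% in the first table and 14.0, 20.4 and 19.8% in the second, lowest in replicate 1 in both. The first-table sum includes Cnot3-202, near 0 in the second. Cnot3-205 alone held 9.01, 13.8 and 15.9% in the first table and 11.5, 18.4 and 18.4% in the second, again lowest in replicate 1. The 80-base intron printed above was in 14.0, 22.7 and 27.9% of spanning TPM in the first table and in 18.99, 28.6 and 29.9% in the second, or 21.5 ± 7.0% and 25.8 ± 6.0% (SD, n = 3). Transcripts estimated to hold this intron thus had their lowest share in the library with the most Malat1. For Cnot7 the shares were 8.08, 7.84 and 10.7% in the first table and 8.65, 10.47 and 9.95% in the second, with no order common to both. Cnot10 was highest in replicate 2 in both tables, at 6.93 and 7.72%.

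**Figure D5:**
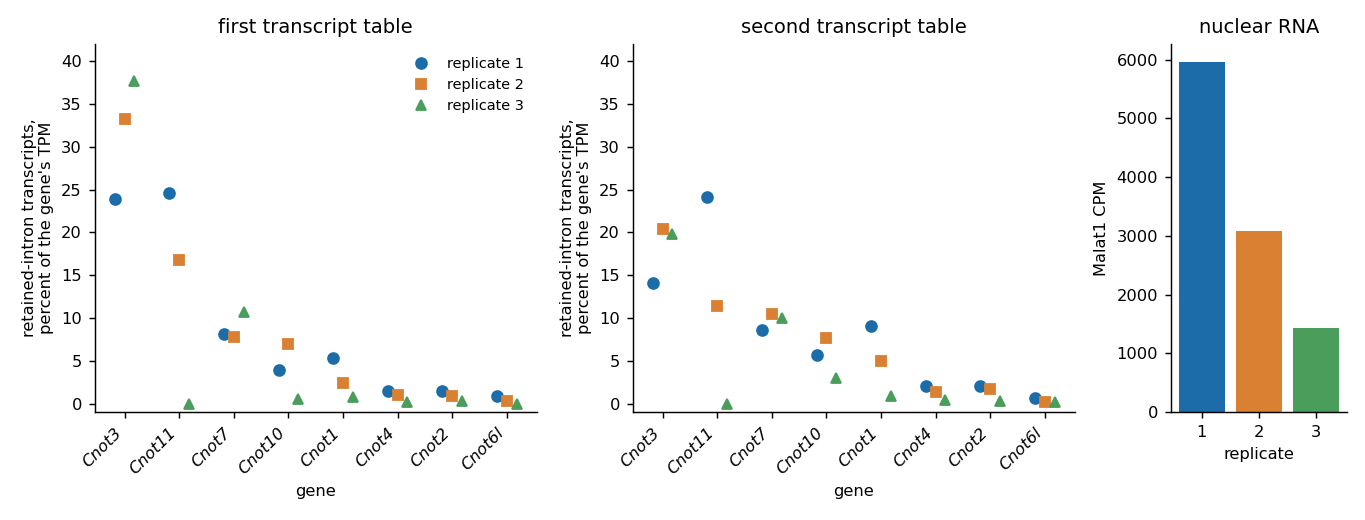
Percent of the gene's TPM on retained-intron transcripts (y axis) for the 8 subunit genes that have them (x axis), by library, in the first (left) and second (middle) transcript tables, with Malat1 CPM per library as bars (right). Cnot11 falls to 0 in replicate 3 while Cnot3 is lowest in replicate 1, the library with 5966 CPM of Malat1.

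The other genes of the pathway were taken from lists of 53 genes, of which 47 were expressed. Of 52 that could be tested, 42 differed between libraries by the heterogeneity test, 80.8%, beside 70.4% of all genes and 77.8% of expressed protein-coding genes. A ratio over 1.5 between highest and lowest CPM was found for 7 of them, 13.5%, beside 23.9% of all genes tested and 11.2% of expressed protein-coding genes. Their median ratio was 1.19, beside 1.10 for the subunits.

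Outside the 10 chosen genes, Cnot9 stood at 12.0, 9.12 and 13.2 TPM, within the range of the catalytic subunits. Its protein binds CNOT1 and contacts the GW182 proteins of microRNA silencing. Tnks1bp1 stood at 1.48, 1.09 and 2.51 TPM with a CPM ratio of 1.56. Both passed the test, beside 70.4% of all genes and 77.8% of expressed protein-coding genes.

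Among 9 other deadenylases 5 were expressed and 5 of 8 tested passed (62.5%, beside 70.4% of all genes and 77.8% of expressed protein-coding genes). Pan3, the adaptor subunit of the PAN2-PAN3 deadenylase that acts on long tails, led with 17.6 ± 4.7 TPM (SD, n = 3), followed by Angel2 with 7.34 and Parn with 3.55 TPM. Pnldc1 was lowest at 0.04 TPM. Noct, a deadenylase-like protein under circadian control, was at 12.9, 4.62 and 3.14 CPM, a ratio of 4.12 with replicate 1 highest. Each subunit nuclease of CCR4-NOT stood above Angel2 and Parn in mean TPM, and below the adaptor Pan3. In replicate 3, however, Cnot6l (20.3 TPM) exceeded Pan3 (18.3 TPM).

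Among 20 adaptors that bring the complex to messages 18 were expressed and 18 of 20 tested passed. That is 90.0%, beside 70.4% of all genes and 77.8% of expressed protein-coding genes. Zfp36, which encodes tristetraprolin, stood at 626.9, 358.1 and 645.2 TPM, above every subunit in every library, and its relative Zfp36l1 at 76.6, 74.5 and 70.9 TPM. Cpeb4, a cytoplasmic polyadenylation element binding protein, stood at 55.5, 28.4 and 68.9 TPM, with a CPM ratio of 1.77, and Btg1, a partner of the CAF1 nucleases, had a ratio of 1.60 with 45.5 ± 17.4 TPM (SD, n = 3). Both were lowest in replicate 2. Nanos1 was lowest of the list at 0.0733 TPM, and its ratio of 8.35 rests on 42, 15 and 5 expected counts. Over the list, 13 of 20 were highest in replicate 3, beside 38.0% of all genes tested and 44.4% of expressed protein-coding genes.

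All 5 poly(A)-binding genes were expressed and 4 passed the test (80.0%, beside 70.4% of all genes and 77.8% of expressed protein-coding genes). Pabpc1, the main cytoplasmic poly(A)-binding protein, stood at 289.8, 211.9 and 249.1 TPM, Pabpn1 at 22.7 and Paip1 at 20.2 TPM on average, and Pabpc4 was lowest with 3.69 TPM. Each of the 5 was lowest in replicate 3 in CPM, beside 32.6% of all genes tested and 2215 of 9057 expressed protein-coding genes. For Pabpn1, at 29.6, 29.3 and 28.6 CPM, the libraries did not differ by the heterogeneity test (adjusted p = 0.68). Paip1 was at 44.8, 48.4 and 44.2 CPM, with replicates 1 and 3 close together.

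All 17 genes of decapping and 5′ decay were expressed and 13 passed (76.5%, beside 70.4% of all genes and 77.8% of expressed protein-coding genes). Ddx6, the helicase that links CCR4-NOT to decapping, stood at 40.1, 28.9 and 45.3 TPM, Dcp2, the decapping enzyme, at 17.2, 11.4 and 22.9 TPM, and Lsm4 at 16.4 TPM on average. Lsm1 was lowest with 2.33 TPM. Dcp2 had a CPM ratio of 1.51 with replicate 3 highest, and Lsm6 one of 1.63 with replicate 2 highest. Ddx6 exceeded Cnot1 in every library, and Dcp2 stood beside Cnot1 at 17.2 against 19.35 TPM on average.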

How the data were processed

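RNA of the cytosolic fraction was sequenced in 3 libraries of 1 group; per the labels, fragments were 250 to 400 bases. For each library there are 3 tables, 1 of genes and 2 of transcripts, on mm10 with GENCODE M21, per the notes deposited with the files; the first transcript table has RSEM's column layout, the second kallisto's, and neither the tools nor the strand setting is given in the sources used here. Expected counts, estimates of reads that need not be whole, were deposited by the authors without normalisation. TPM was deposited by the authors over every indexed feature, short RNAs included. A percent of the gene's TPM per transcript is also in the authors' deposited first transcript table; the shares in the text were recalculated from TPM. The posterior SD of counts is the authors' deposited value.

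Counts were rounded and scaled with TMM (edgeR 4.0.16, R 4.3.3); rows naming no gene (0.0785, 0.0521 and 0.0251% of counts) were left out. Every gene averaging at least 10 counts entered the Poisson heterogeneity test (threshold 0.05 on the adjusted p). A count of 0 allows 3 counts. Differences used log2(TPM + 1) within a library and the exact sign-flip permutation test. The heterogeneity test, and not the sign-flip test, was checked on simulated Poisson counts of 13827 genes. There, 23 of 50 genes changed 1.2-fold in 1 library, 39 of 50 changed 1.5-fold, 44 of 50 changed 2-fold and 50 of 50 changed 4-fold were called. Of 13627 unchanged genes 7 were called. Apart from these changes the simulated libraries held only counting error, unlike the real ones, in which 70.4% of genes were called. Libraries differed pairwise beyond counting error in 50.9 to 53.6% of genes.

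Text names all 10 subunits; of each pathway list the 3 highest, the lowest and genes past the test with a ratio over 1.5; the 2 highest markers per cell type (some items are not reported here); and transcripts with at least 10% of TPM in either table. Members and lists were chosen with earlier results of these data known. Segments were defined after seeing the data, and promoter sequences are RefSeq's. Alternatives included DESeq2 1.42.0 size factors, other filters, other TPM scales, the second transcript table and leaving out each library.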

Additional observations from a re-analysis of the deposited data

How the results depend on the processing

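Each result was recomputed under other settings; shares with a segment and retained-intron shares were added after seeing the data. The count of subunits past the heterogeneity test stayed at 8 or 9 under 5 other settings of scaling, filter and count, and was 5 with any 1 library left out, but not over the same genes: with total expected counts Cnot3 and Cnot11 passed and Cnot8 did not. The median TPM of the 10 genes, 11.4, became 35.5 with TPM rescaled to protein-coding genes, a scale that differs by construction. In the second transcript table it was 5.24 ± 2.42 (SD, n = 3). The gap between the tables varied by library: first-table TPM was 1.61, 2.52 and 3.32 times second-table TPM in replicates 1, 2 and 3 (medians over the 10 genes). The median share of the highest transcript, 60.0%, became 48.2% in the second table. Subunits highest in replicate 2 went from 2 to 1 with DESeq2 size factors, and those highest in replicate 3 from 4 to 2 with rescaled TPM. Cnot7 minus Cnot8, -0.06, reversed to 0.11 in the second table and ranged from -0.16 to 0.051 with 1 library left out; Cnot4 minus the median of the others, -0.06, ranged from -0.12 to 0.0060. The other 5 differences kept their sign under every setting run. The cause of these changes was not tested. Precision of transcript counts did not follow their number alone. The posterior SD was at most 4.70 for Cnot6l-206, on 45.3 to 74.9 expected counts. For Cnot1-216 it was at most 101.2, on 129.2 to 210.4. No paired analysis was possible because there is only 1 group.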
